A study of Arabidopsis thaliana with 12 samples.

Results

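Pectin-modifying genes of Arabidopsis roots were followed in wild type (WT) and in *GmNTL4*-overexpressing plants (OX), with and without aluminium (Al). The set holds 10 of the 25872 genes in the table. Of these, 5 are pectin methylesterase genes (*PME25*, *PME59*, *PME60*, *PME3* and *PME46*) and 5 are pectin lyase-like genes (AT3G59850, AT2G33160, AT2G43870, AT2G43880 and AT2G43890). The study had named 7 of them, chosen by its DEGseq comparison of OX with WT under Al in these libraries, so values of that comparison are given below as a description without a test. It also ran qRT-PCR on AT2G33160, *PME59*, AT2G43880 and AT2G43890 and reported directions similar to those of its RNA-seq. The qRT-PCR values were not examined here. *PME3*, *PME46* and AT2G43870 were added with earlier values of these libraries in view.

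The 12 RNA-seq libraries were made from whole roots of *Arabidopsis thaliana* in 4 groups of 3: WT without Al (WT control), OX without Al (OX control), WT with Al and OX with Al. OX plants carry the soybean gene *GmNTL4*, which codes for a membrane-bound NAC transcription factor, under the 35S promoter, which is active in most tissues. The methods describe 2 overexpression lines per gene, and which line gave the RNA is not given in the sources used here. Al was 5 µM AlCl3 at pH 4.5 for 48 h according to the methods and for 24 h according to the labels, and the groups called control are named as such by the labels alone. Nothing states that replicates came from separate cultures, so the p-values measure the spread between these libraries, which may be technical.

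Homogalacturonan, the main pectin of the primary cell wall, is laid down with methyl groups on its acid residues. Pectin methylesterases remove these groups and leave negative charges, to which calcium and Al can bind. Polygalacturonases cut the chain where it has been demethylated, and they share with pectin and pectate lyases a helical fold that gives the pectin lyase-like superfamily its name, so the name does not tell which reaction a member carries out. In roots, the state of the pectin is known to affect wall stiffness, cell separation at the root cap and the amount of Al that the wall holds.

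Several members have close copies in the genome, and the stretches below show how far reads could be confused between them. *PME59* (TAIR10.1, chromosome 5, 20913510 to 20915879, minus strand, 2 exons) and *PME60* (20917795 to 20919964, minus strand, 2 exons) stand 1915 bp apart. Their coding sequences are identical at 87.3% of 1605 aligned bases. The longest run that both share without a difference, shown because it bears on the reading of both genes, is 71 bases long and begins at base 706 of the *PME59* and base 718 of the *PME60* coding sequence.
PME59 and PME60: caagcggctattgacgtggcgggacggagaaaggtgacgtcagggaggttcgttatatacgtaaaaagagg
The run is shorter than a read of 150 bases. How reads that fit both copies were counted is not given in the sources used here, so values of *PME59* and *PME60* are uncertain to that extent.

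*PME25* and *PME46* each stand tail to tail with another pectin methylesterase gene. On chromosome 3, *RHS12* (3352077 to 3354375, plus strand) ends 30 bp before the end of *PME25* (3354406 to 3357754, minus strand, 4 exons). On chromosome 5, *PME46* (1461786 to 1464066, plus strand, 2 exons) ends 12 bp before the end of AT5G04970 (1464079 to 1467161, minus strand, 4 exons). The coding sequences matched across the chromosomes rather than between neighbours. *PME25* was 78.4% identical to AT5G04970 and 62.8% identical to its neighbour *RHS12*, and *PME46* was 73.4% identical to *RHS12* and 61.6% identical to its neighbour AT5G04970. The longest shared runs of the cross-chromosome pairs, shown to mark them as copies, were 29 and 32 bases.
PME25 and AT5G04970: tgtagttttgaaggctatcaagatactct
PME46 and RHS12: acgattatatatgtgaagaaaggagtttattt

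Among the pectin lyase-like genes, AT2G43870 (chromosome 2, 18166336 to 18168381, minus strand), AT2G43880 (18172889 to 18174705, plus strand) and AT2G43890 (18176831 to 18179178, plus strand) lie next to each other with 4 exons each. AT2G43880 and AT2G43890, 2125 bp apart, were identical at 66.2% of the aligned coding bases. AT2G43870 was most like AT3G59850 (chromosome 3, 22109103 to 22111732, minus strand, 4 exons), with 80.7% identity and a longest shared run of 23 bases, shown because it is the closest match among these genes.
AT3G59850 and AT2G43870: aaaaagtccggcaagaattgccc
AT2G33160 (chromosome 2, 14053404 to 14056246, plus strand, 3 exons), a polygalacturonase gene also called *NIMNA*, and *PME3* (chromosome 3, 4771833 to 4775258, minus strand, 3 exons) stand apart from the other members. The ends of AT2G43890, AT2G33160 and *PME59* overlap a gene on the other strand by 591, 147 and 38 bp. Counting by strand is not stated, so reads in these overlaps cannot be assigned to a strand. AT2G43900, which overlaps AT2G43890, had 3.93 to 5.39 FPKM over the 12 libraries, above AT2G43890 in each of them.

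CATGT, a core motif bound by many NAC factors, was searched on both strands (CATGT or ACATG) in the 250 bp upstream of each annotated gene start. It was found at least once in 4 of the 10 members, and 34.5% of the 20586 tested genes with a nuclear locus had it. *PME25* (chromosome 3, 3357755 to 3358004) and AT2G43890 (chromosome 2, 18176581 to 18176830) had 4 matches each, while 4.19% of genes had 3 or more. An ACATGT counts as 2 overlapping matches, 1 on each strand, and both windows hold 1 such site. The windows are printed 5′ to 3′ on the strand of the gene, with the matches in capitals, because they are the densest of the set.
PME25: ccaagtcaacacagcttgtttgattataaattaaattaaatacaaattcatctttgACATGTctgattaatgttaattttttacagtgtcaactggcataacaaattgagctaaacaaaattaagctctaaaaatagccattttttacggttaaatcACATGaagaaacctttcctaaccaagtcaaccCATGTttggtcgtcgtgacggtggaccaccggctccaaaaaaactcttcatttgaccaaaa
AT2G43890: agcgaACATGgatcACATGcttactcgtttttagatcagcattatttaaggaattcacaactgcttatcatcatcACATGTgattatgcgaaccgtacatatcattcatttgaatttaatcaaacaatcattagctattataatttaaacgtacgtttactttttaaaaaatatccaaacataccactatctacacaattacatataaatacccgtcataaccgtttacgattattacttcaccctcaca
*PME46* and AT3G59850 had 1 match each. The other 6 windows had none, which says only that these letters are not in 250 bp. In 1000 bp the motif was found in 7 of the 10 members and in 83.8% of genes. A match is not a binding site, and binding was not measured here.

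Expression was read as FPKM, fragments scaled to the length of the gene and to the total of the library, which allows levels to be compared between genes. The libraries held 16162941 to 17136217 fragments on genes, and within the groups they correlated at 0.951 to 0.983. All 10 members passed the filter of at least 0.5 FPKM in at least 3 libraries, AT2G43890 with exactly 3. The 18 root markers used as a check (root hair, root cap, endodermis, stele and meristem) were above 0 in every library, apart from *RCPG* in 1 OX library with Al. Markers of green tissue, which roots should lack, summed to 101, 135 and 197 FPKM in WT control replicate 1, WT Al replicate 3 and WT Al replicate 2, and to 4.87 to 29.9 FPKM in the other 9 libraries. In whole roots, fewer cells of a type and less RNA per cell cannot be told apart.

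The levels covered a wide range. *PME3*, a pectin methylesterase found throughout vegetative tissue, was the most expressed member in every library with 108 to 214 FPKM. *PME25* followed with 10.9 to 47.3 FPKM and *PME46* with 4.29 to 27.7 FPKM, and these ranges overlap. *PME59*, *PME60*, AT3G59850, AT2G43870, AT2G43880 and AT2G43890 did not exceed 3.44 FPKM in any library, and their order changed from library to library. AT2G33160 covered 0.12 to 25.4 FPKM, the widest ratio among members above 0 in every library.

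**Figure D1:**
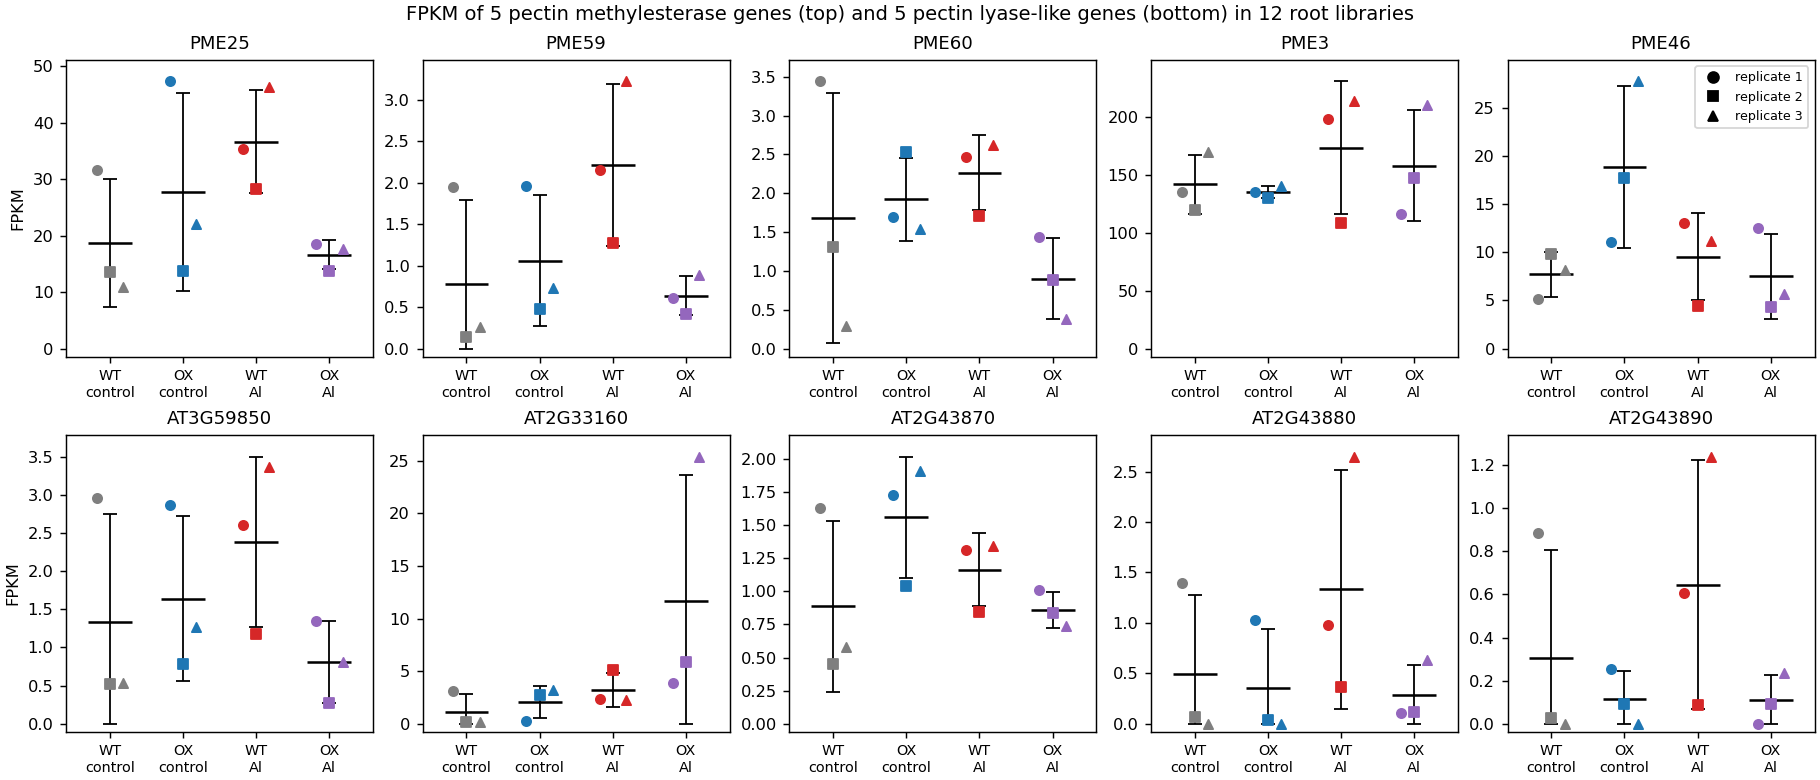
FPKM (vertical axis, starting at 0, with its own scale per gene) of the 10 members in the 4 groups (horizontal axis). Points are libraries, with the shape giving the replicate number, and lines are group means with SD bars (n = 3, cut off at 0). *PME3* varies between 108 and 214 FPKM without a step between groups, while *PME25* under Al sits at 28.2 to 46.4 FPKM in WT and at 13.7 to 18.5 FPKM in OX.

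*PME25* was the most expressed of the 3 members whose genotypes did not overlap with Al. Its 3 WT libraries without Al had 31.7, 13.6 and 10.9 FPKM, and the OX libraries without Al had 47.3, 13.7 and 22.0 FPKM. With Al, WT gave 35.4, 28.2 and 46.4 FPKM, and OX gave 18.5, 13.7 and 17.7 FPKM. Under Al every WT library was thus above every OX library, whereas in control the genotypes overlapped and replicate 1 of each genotype was the highest. The mean was 36.7 ± 9.18 FPKM in the WT and 16.7 ± 2.58 FPKM in the OX libraries with Al (SD, n = 3), a ratio of 2.2. The highest WT libraries of each condition, control replicate 1 and Al replicate 3, were among the 3 libraries with high green-tissue markers (101 and 135 FPKM), as was WT Al replicate 2 (197 FPKM), the lowest WT library with Al. WT Al replicate 1, with the lowest sum of these markers (4.87 FPKM), had 35.4 FPKM of *PME25*. Their part in the result was not tested.

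*PME59* followed the same course at a lower level. It had 1.95, 0.142 and 0.263 FPKM in WT control and 1.96, 0.482 and 0.734 FPKM in OX control. Under Al, WT libraries had 2.15, 1.27 and 3.22 FPKM, while OX libraries had 0.616, 0.420 and 0.884 FPKM. Again the genotypes were apart with Al and overlapped without it. The lowest WT control library rested on 5 fragments and the highest on 68, and the range within that group was larger than any difference between group means.

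*PME60*, the tandem copy of *PME59*, had 3.44, 1.31 and 0.287 FPKM in WT control and 1.70, 2.53 and 1.54 FPKM in OX control. In the presence of Al, the values were 2.47, 1.71 and 2.62 FPKM for WT and 1.44, 0.883 and 0.386 FPKM for OX. The OX libraries with Al were below all OX control libraries and below all WT libraries with Al. Over the 12 libraries *PME60* followed *PME59* with r = 0.603 (Spearman 0.671). This and the other correlations below are descriptions of log2(FPKM + 0.5) over 12 libraries that share groups and scaling, and no p is attached to them.

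*PME3* had 135, 120 and 170 FPKM in WT control, 135, 130 and 140 FPKM in OX control, 198, 108 and 214 FPKM in WT with Al and 116, 147 and 210 FPKM in OX with Al. The 4 groups overlapped throughout. With Al, the range within either genotype was wider than any difference between group means. Its own tandem neighbour AT3G14300 was at 0 to 3.50 FPKM, far below *PME3* in each library.

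*PME46* stood out without Al. It had 5.17, 9.82 and 8.14 FPKM in WT control and 11.1, 17.7 and 27.7 FPKM in OX control. Al-treated WT roots had 13.0, 4.45 and 11.2 FPKM, and Al-treated OX roots had 12.5, 4.29 and 5.65 FPKM. Every OX control library was above every WT control library, while the genotypes overlapped with Al.

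AT3G59850 had 2.96, 0.521 and 0.534 FPKM in WT control and 2.86, 0.787 and 1.27 FPKM in OX control. After Al treatment, WT reached 2.61, 1.17 and 3.37 FPKM against 1.34, 0.274 and 0.808 FPKM in OX. The groups overlapped under both conditions, with replicate 1 high in both control groups. AT2G43870 had 1.63, 0.453 and 0.580 FPKM in WT control, 1.73, 1.04 and 1.91 FPKM in OX control, 1.31, 0.844 and 1.34 FPKM in WT with Al and 1.01, 0.834 and 0.741 FPKM in OX with Al. Its OX libraries with Al were below its OX control libraries.

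AT2G43880 and AT2G43890 were near the limit of these libraries. AT2G43880 had 39, 2 and 0 fragments in WT control, 29, 1 and 0 in OX control, 27, 10 and 73 in WT with Al and 3, 3 and 17 in OX with Al. AT2G43890 had 31, 1 and 0 fragments in WT control, 9, 3 and 0 in OX control, 21, 3 and 43 in WT with Al and 0, 3 and 8 in OX with Al. In both genes 1 or 2 libraries held most fragments of each group, and the groups overlapped. AT2G43860, the pectin gene on the other side of AT2G43870, was at 0 in 11 libraries and at 0.0413 FPKM in WT Al replicate 3, and it was not tested.

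AT2G33160 was the member whose level was higher in OX than in WT with Al. It had 3.07, 0.147 and 0.120 FPKM in WT control and 0.292, 2.70 and 3.21 FPKM in OX control. Under Al, WT libraries had 2.33, 5.07 and 2.21 FPKM, while OX libraries had 3.84, 5.89 and 25.4 FPKM. The genotypes overlapped with Al, and OX replicate 3 held most of the OX mean of 11.7 ± 11.9 FPKM (SD, n = 3). The OX libraries with Al were all above the OX control libraries.

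The comparison of OX with WT in control roots asks whether *GmNTL4* changed these genes without Al. These libraries were not used to name the 7 genes, but the other 3 members were added with their values in view. The level was higher in OX for 7 of the 10 members and lower for 3, with a median log2 difference of 0.43 against -0.01 over all genes tested. No member passed the limits of limma (adjusted p up to 0.05 and a log2 difference of 1 or more in size), where 0.0433% of 20773 genes were called. At an unadjusted p under 0.05, 1 member passed, against 4.71% of genes, and limma voom on fragments called 0. None of the 7 genes named by the study passed. The member that did was *PME46*, 1 of the 3 added later, so that its value is not independent of its choice, with a mean of 18.8 ± 8.34 FPKM in OX and 7.71 ± 2.35 FPKM in WT (SD, n = 3), a log2 difference of 1.19 (SE 0.47) and an adjusted p of 0.967 by limma. It was also the member whose groups did not overlap, and 3.93% of genes had OX libraries all above the WT libraries. The adjusted p of the other 9 members was 1.0. Among them AT2G33160 had a log2 difference of 0.9 (SE 0.84). Leaving out replicate 1 of both control groups, added after the data had been seen, gave 2.44 (SE 0.7, limma adjusted p = 0.457). Replicate 1 was its highest WT control library (3.07 FPKM) and its lowest OX control library (0.292 FPKM), so that step had to raise the difference.

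The comparison of Al with control in WT asks how these genes respond to Al in ordinary roots. The log2 difference was above 0 for all 10 members, with a median of 0.72 against 0.01 over all genes, but the groups overlapped for each of them, while 16.4% of genes had groups that did not overlap. No member was called by limma, where 0.332% of genes were, and voom called 0. At an unadjusted p under 0.05, 2 members passed, against 12.5% of genes. They were *PME25* with a log2 difference of 1.07 (SE 0.44, limma adjusted p = 0.348) and *PME59* with 1.29 (SE 0.51, limma adjusted p = 0.326). AT2G33160 had the highest value, 1.63 (SE 0.84, limma adjusted p = 0.469), and *PME46* the lowest, 0.21 (SE 0.47, limma adjusted p = 0.901). The WT libraries with Al also took part in the comparison that named the 7 genes, so their high values are not independent of that choice.

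The values in WT depended on WT control replicate 1. When replicate 1 of both control groups was left out, a step added after the data had been seen, *PME25* was 1.52 (SE 0.25, limma adjusted p = 0.0389) and *PME59* 1.89 (SE 0.33, limma adjusted p = 0.0413), and both were called, among 141 genes in place of 69 over the whole table. WT control replicate 1 was the highest WT control library for both genes, so leaving it out had to raise both differences. Without WT control replicate 1 alone, the log2 differences were the same and the limma adjusted p was 0.121 for *PME25* and 0.0823 for *PME59*.

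In OX the comparison of Al with control gave values below 0 for 7 members and above 0 for 3, with a median of -0.45 against -0.01 over all genes. The OX libraries with Al also took part in the comparison that named the 7 genes, so low values in them, and the high value of AT2G33160, are not independent of that choice. No member was called by limma, where 0.862% of genes were, and voom called 0. At an unadjusted p under 0.05, 2 members passed, against 13.7% of genes. *PME46* had a log2 difference of -1.32 (SE 0.47, limma adjusted p = 0.226), and its groups overlapped through OX Al replicate 1. AT2G33160 had 2.09 (SE 0.84, limma adjusted p = 0.294), with groups that did not overlap and a ratio of means of 5.68. Without OX Al replicate 3 its log2 difference was 1.32. *PME60* (-0.84, SE 0.49, limma adjusted p = 0.504) and AT2G43870 (-0.57, SE 0.30, limma adjusted p = 0.451) were lower with Al in every OX library, as were 11.4% of genes, and 9.11% were higher in every library. The directions of AT2G43880 (0.01) and AT2G43890 (-0.01) changed with the processing.

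Set side by side, the log2 differences with Al were 1.07 in WT and -0.55 in OX for *PME25*. They were 1.29 and -0.36 for *PME59*, 0.62 and -0.84 for *PME60*, and 0.82 and -0.68 for AT3G59850. In *PME46* they were 0.21 and -1.32, and in AT2G43870 they were 0.34 and -0.57. AT2G33160 had values above 0 in both genotypes, 1.63 and 2.09, and *PME3* differed from 0 by less than its SE in both, 0.24 and 0.18. The difference between the genotypes in their Al response is given for the members without a p, because it contains the comparison by which 7 of them were named. Over the whole table no gene was called for it, and 4.98% of genes had an unadjusted p under 0.05. The values of *PME59* in OX turned to 0.03 and of *PME46* in WT to -0.04 when replicate 1 of both control groups was left out. In the same fit the OX values of *PME25* and AT3G59850 became -0.07 and -0.29. They were the same without OX control replicate 1 alone, so the fall of *PME25* in OX rested on that library. The OX values of *PME60*, *PME46* and AT2G43870 were -0.9, -1.64 and -0.5 without replicate 1 of both control groups.

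As a description, OX minus WT with Al was below 0 for 9 members and above 0 for AT2G33160 (1.36). The value of *PME3* was above 0 without WT Al replicate 1, WT Al replicate 3 or OX Al replicate 1, with 0.08 as the highest. The lowest values were those of *PME59* (-1.21), AT3G59850 (-1.14), *PME25* (-1.10), AT2G43880 (-1.09) and *PME60* (-1.04). The 3 members that the study had not named lay nearer 0, with -0.12 for *PME3*, -0.34 for *PME46* and -0.28 for AT2G43870. The OX libraries were all below the WT libraries in 3 members, *PME25*, *PME59* and *PME60*, as in 10.8% of all genes tested. Of all genes tested, 0.0385% of genes were called. Nothing is read from these shares, since the members were named from the same comparison.

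**Figure D2:**
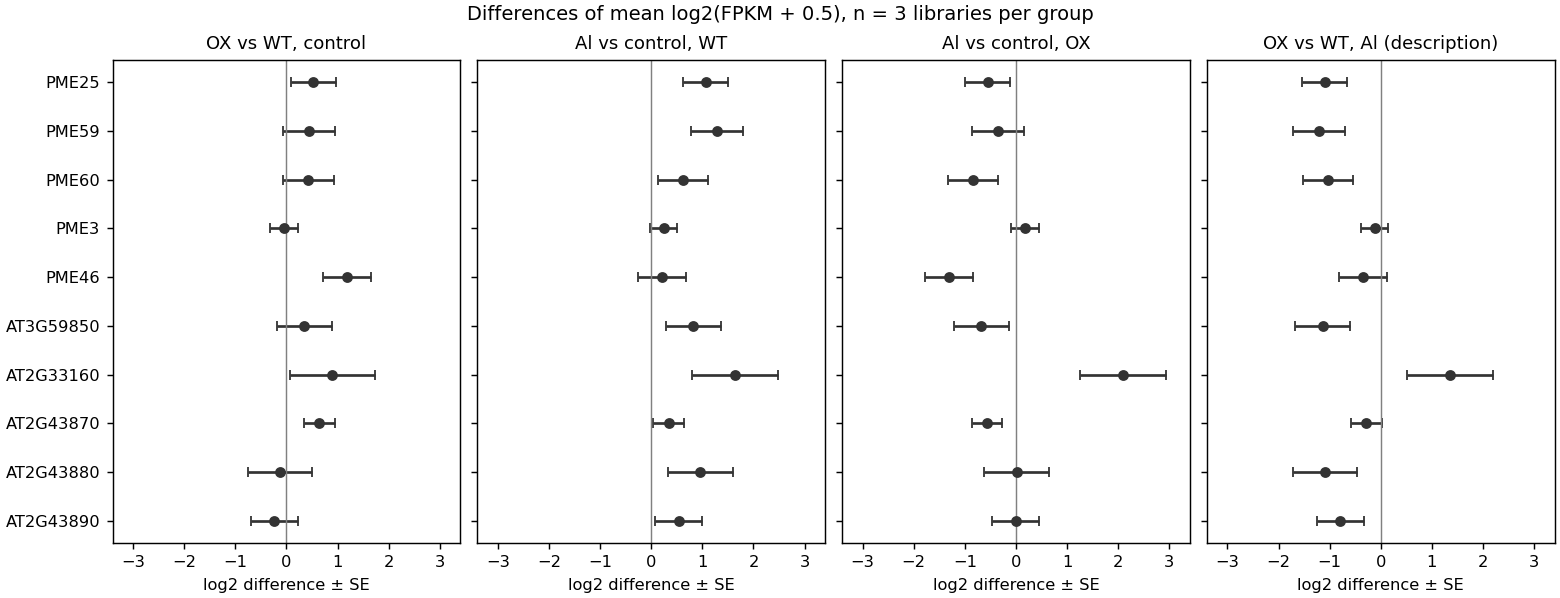
Differences of mean log2(FPKM + 0.5) with the limma standard error (horizontal axis) for the 10 members (vertical axis) in 4 comparisons, n = 3 libraries per group. With Al, 10 of 10 values are above 0 in WT and 7 of 10 are below 0 in OX, and the panel of OX vs WT with Al is a description because it served to name 7 of the genes.

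Within the groups, 6 members moved together from library to library: *PME25*, *PME59*, AT3G59850, AT2G43870, AT2G43880 and AT2G43890. They were singled out after their values had been seen. Deviations from the group means correlated at 0.653 to 0.943 over the 15 pairs (Spearman 0.559 to 0.979), and at 0.444 to 0.937 without the 2 farthest libraries. Their 24 pairs with the other 4 members gave -0.224 to 0.578. WT control replicate 1 had the highest value of its group in 6 of the 6 genes, OX control replicate 1 in 5 and WT Al replicate 3 in 6. The mean log2(FPKM + 0.5) of the 6 genes was 1.76 in WT control replicate 1 and 0.23 and 0.21 in the other WT controls. With Al it was 1.63, 0.98 and 2.12 in WT and 0.70, 0.38 and 0.85 in OX.

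Root cap and endodermis markers moved with these genes. The 4 root cap markers summed to 3.72, 1.89 and 1.12 FPKM in WT control, 4.55, 2.22 and 3.16 FPKM in OX control, 2.99, 2.80 and 4.18 FPKM in WT with Al and 3.31, 1.57 and 1.85 FPKM in OX with Al. Replicate 1 of both control groups and WT Al replicate 3 were the highest of their groups in this sum too. In WT control this was so for *SMB* and *BRN2* alone. *BRN1* was highest in replicate 2 (0.843 FPKM), and *RCPG* was lowest in replicate 1 (0.0803 FPKM). The mean log2(FPKM + 0.5) of the 4 root cap markers correlated over 12 libraries at 0.87 with *PME25*, 0.75 with *PME59* and 0.88 with AT3G59850. It correlated at 0.78 with AT2G43870, 0.61 with AT2G43880 and 0.50 with AT2G43890, and at 0.72 with *PME60*, which is not among the 6. The 3 endodermis markers summed to 133 FPKM in WT control replicate 1 and to 58.4 and 52.9 FPKM in the other WT controls. Their mean log2(FPKM + 0.5) correlated with the 6 genes at 0.69 (*PME25*) to 0.83 (AT2G43890), and with *PME60* at 0.74. With the 6 genes, stele markers correlated at -0.15 to 0.42 and meristem markers at -0.19 to 0.29. The part of the markers in these results was not tested. Of all genes tested, AT2G43870 was most like *SMB*, a NAC factor and 1 of the 4 root cap markers, at r = 0.882 over the 12 libraries.

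**Figure D3:**
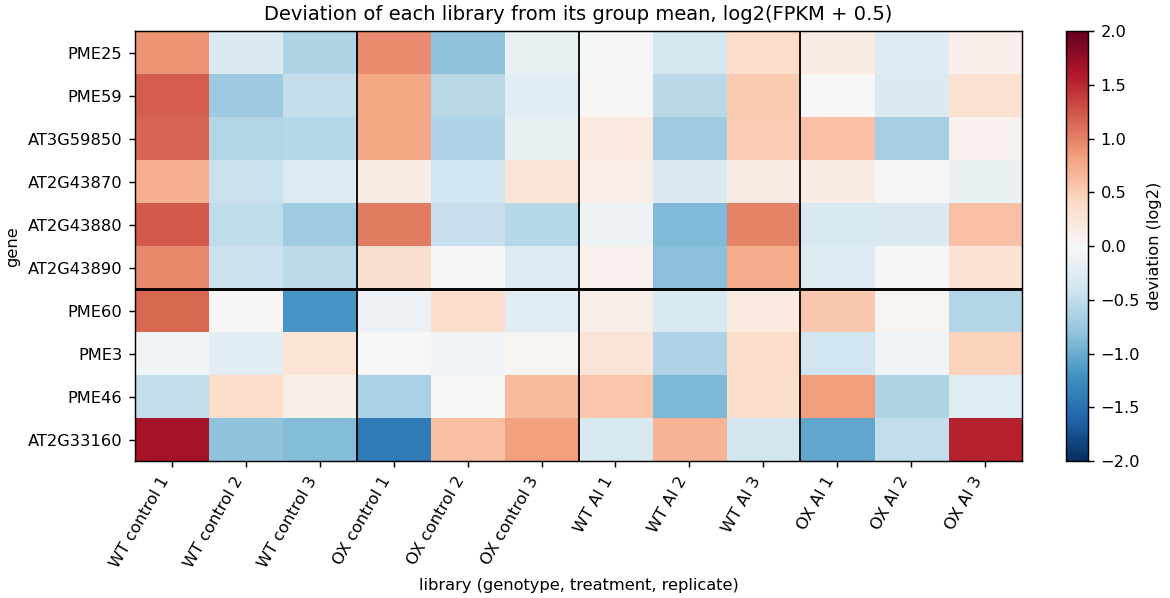
Deviation of log2(FPKM + 0.5) from the mean of its group (colour) for the 10 members (rows) in the 12 libraries (columns). The 6 genes above the line share red in replicate 1 of both control groups and in WT Al replicate 3, and the 4 genes below the line do not share one pattern.

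*PME46* moved with root hair markers. The sum of the 6 root hair markers was 63.2, 53.2 and 34.0 FPKM in WT control, 102, 106 and 117 FPKM in OX control, 64.8, 44.2 and 68.7 FPKM in WT with Al and 59.8, 23.8 and 28.8 FPKM in OX with Al. The OX control libraries were above all others in this sum, and OX Al replicate 1 was the highest OX library with Al, as in *PME46*. The correlation of *PME46* with the mean log2 level of these markers, computed as for the root cap markers, was 0.83. AT2G43870 followed with 0.71 and *PME60* with 0.67. Within groups this correlation was 0.68 for *PME46*, 0.68 for *PME60* and 0.63 for AT3G59850, so the relation was not particular to *PME46*. The part of root hair cells in the *PME46* values was not tested. The gene most like *PME46* was AT1G13310 at r = 0.943.

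The likeness of the other members was led by genes of varied function. *PME25* was most like AT5G10130, of the pollen Ole e 1 allergen and extensin family, at r = 0.963, and *PME59* was most like *ARA12*, a subtilase, at 0.969. AT2G43880 was most like the auxin transporter gene *ABCB19* at 0.972. The remaining nearest genes were AT1G31540 for *PME60* (0.953), AT3G02820 for *PME3* (0.957), AT3G24210 for AT3G59850 (0.951), AT1G29640 for AT2G33160 (0.947) and AT5G14210 for AT2G43890 (0.956). Each was picked as the highest correlation among all genes tested and carries no test.

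The tail-to-tail neighbours differed in expression. *RHS12*, a root hair gene, had 2.86, 3.02 and 1.03 FPKM in WT control and 5.73, 6.47 and 7.94 FPKM in OX control. In the presence of Al, the values were 3.07, 2.69 and 3.42 FPKM for WT and 3.43, 0.907 and 1.25 FPKM for OX. Its OX control libraries were above those of every other group, as was seen for *PME46* against WT control. *RHS12* differed by 1.45 between OX and WT control on the log2 scale (SE 0.39, limma adjusted p = 0.526) and by -1.75 between Al and control in OX (SE 0.39, limma adjusted p = 0.0578). The second value passed the limits with a pseudocount of 1 (limma adjusted p = 0.0487), without WT control replicate 3 (0.0386) and without OX Al replicate 1 (0.00759).

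AT5G04970 had 2.97, 1.66 and 1.0 FPKM in WT control and 3.50, 1.53 and 2.07 FPKM in OX control. Al-treated WT roots had 3.54, 2.39 and 4.40 FPKM, and Al-treated OX roots had 2.42, 1.44 and 2.21 FPKM. Replicate 1 was the highest in both control groups and WT Al replicate 3 was the highest of the WT libraries, as in *PME25*. *PME25* correlated with AT5G04970, its closest match in sequence among the genes compared, at 0.953 and with its neighbour *RHS12* at 0.412. *PME46* correlated with *RHS12* at 0.782 and with its neighbour AT5G04970 at 0.098. Within groups the deviations gave 0.949 and 0.316 for *PME25*, and 0.539 and 0.040 for *PME46*. In both convergent pairs, then, the member followed the gene it resembles in sequence more closely than the gene beside it. Likeness in sequence did not single these partners out. *PME25* correlated at 0.952 with *PME59*, to which it was 63.7% identical. Within groups *PME46* followed AT3G14300 (70.9% identical) at 0.747, above *RHS12*, though over the 12 libraries at 0.369. The longest shared runs of *PME25* with AT5G04970 and of *PME46* with *RHS12* were 29 and 32 bases, and reads had 150 bases. The part of shared reads in these correlations was not tested.

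**Figure D4:**
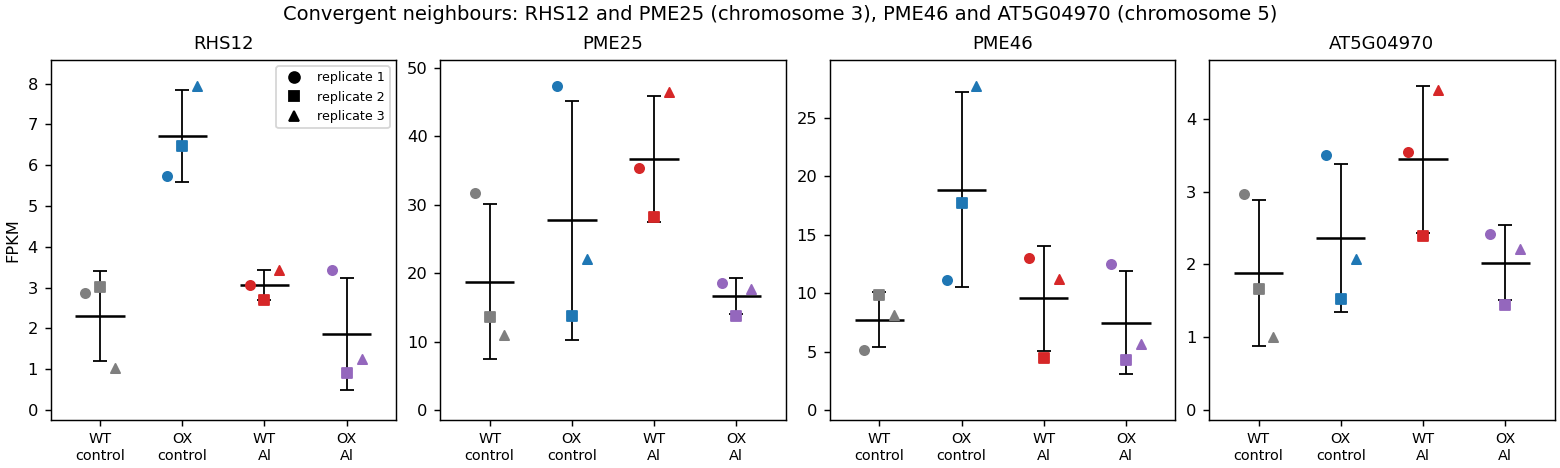
FPKM (vertical axis, starting at 0, own scale per gene) of the convergent neighbours *RHS12* and *PME25* and of *PME46* and AT5G04970 in the 4 groups, with group means and SD bars (n = 3, cut off at 0). *RHS12* and *PME46* have their highest mean in OX control (6.71 and 18.8 FPKM), and *PME25* and AT5G04970 have theirs in WT with Al (36.7 and 3.44 FPKM).

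On chromosome 2, AT2G43880 and its neighbour AT2G43890 correlated at 0.946, while AT2G43870 correlated with them at 0.468 and 0.460. AT2G43870 correlated with AT3G59850, the gene it resembles most in sequence, at 0.759.

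The wider families were listed by annotation, without the 10 members. Of 60 other pectin methylesterase genes, 28 were tested. In control roots 23 of them were higher in OX and 5 lower, with 0 called by limma (5 at an unadjusted p under 0.05, against 4.71% of all genes, and 0 by voom) and a median log2 difference of 0.20 against -0.01 over all genes. With Al in WT 21 were higher and 7 lower, with a median of 0.25 against 0.01, 3 with no overlap (16.4% of all genes in either direction) and 8 at an unadjusted p under 0.05 (12.5% of all genes). In OX with Al 14 were higher and 14 lower, with a median of -0.01, 0 called by limma or voom and 7 at an unadjusted p under 0.05 (13.7% of all genes). OX was higher than WT with Al in 13 and lower in 15, with a median of -0.11 against -0.03. When the Al responses of the genotypes were compared, 22 of the 28 were below 0, with a median of -0.52 against -0.03 over all genes, 0 called by limma or voom and 5 at an unadjusted p under 0.05 (4.98% of all genes).

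*PME1* (AT1G53840), a pectin methylesterase gene, was the only gene of the 6 lists called higher with Al in WT roots. It had 48.0, 41.2 and 36.6 FPKM in WT control and 80.9, 76.7 and 103 FPKM in WT with Al. The groups did not overlap, and the mean rose from 42.0 ± 5.74 to 86.9 ± 14.2 FPKM (SD, n = 3), a log2 difference of 1.04 (SE 0.16, limma adjusted p = 0.0274; 0.0350 by voom). The call was lost without WT control replicate 2 or 3 or any WT library with Al (limma adjusted p from 0.0601 to 0.125) and in a fit to only the WT libraries (0.0642). In OX it had 64.5, 48.5 and 70.1 FPKM in control and 76.9, 89.6 and 89.3 FPKM with Al, a log2 difference of 0.49 (SE 0.16, limma adjusted p = 0.189) with groups that did not overlap. No member and no other gene of the 6 lists was called in any of the 3 tested comparisons. Listed genes outside the members had log2 differences of up to 1.35 with Al in WT without a call.

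Of 84 other polygalacturonase and pectin lyase-like genes, 42 were tested, with 0 called in any comparison by limma or voom. OX was lower than WT with Al in 34 and higher in 8, with a median of -0.27 against -0.03 over all genes, 9 with no overlap and 4 at an unadjusted p under 0.05, where 10.8% of all genes passed the latter and 10.8% were lower in every OX library. In control roots 26 were lower and 16 higher, with a median of -0.07 and 4 at an unadjusted p under 0.05 (4.71% of all genes). With Al, 27 were higher in WT and 17 in OX.

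Genes listed under homogalacturonan synthesis were taken by annotation or by a GAUT, GATL or QUA symbol. Not every one need build the chain, since *QUA3* is annotated as a methyltransferase. The list held 23 genes, of which 22 were tested and 0 called by limma or voom. With Al in WT 20 were higher and 2 lower, with a median of 0.14 against 0.01 over all genes, 6 with no overlap (16.4% of all genes in either direction) and 4 at an unadjusted p under 0.05 (12.5%). OX was lower than WT with Al in 20 and higher in 2, with a median of -0.22 against -0.03 and 7 with no overlap (10.8% of all genes). These 2 comparisons share the WT libraries with Al. Also tested were 24 genes of the invertase and pectin methylesterase inhibitor superfamily and 10 pectin acetylesterases, which remove acetyl groups from pectin. The pectate lyase list had 1 tested gene, with that name in its annotation. Genes annotated as pectin lyase-like were listed with the polygalacturonases. In the inhibitor, acetylesterase and pectate lyase lists 0 genes were called by limma or voom. The medians of these lists with Al were 0.10, 0.30 and 0.63 in WT and 0.20, 0.31 and 0.03 in OX. At an unadjusted p under 0.05 there were 4, 2 and 0 genes in WT, against 12.5% of all genes. In OX there were 3, 1 and 0, against 13.7% of all genes.

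**Figure D5:**
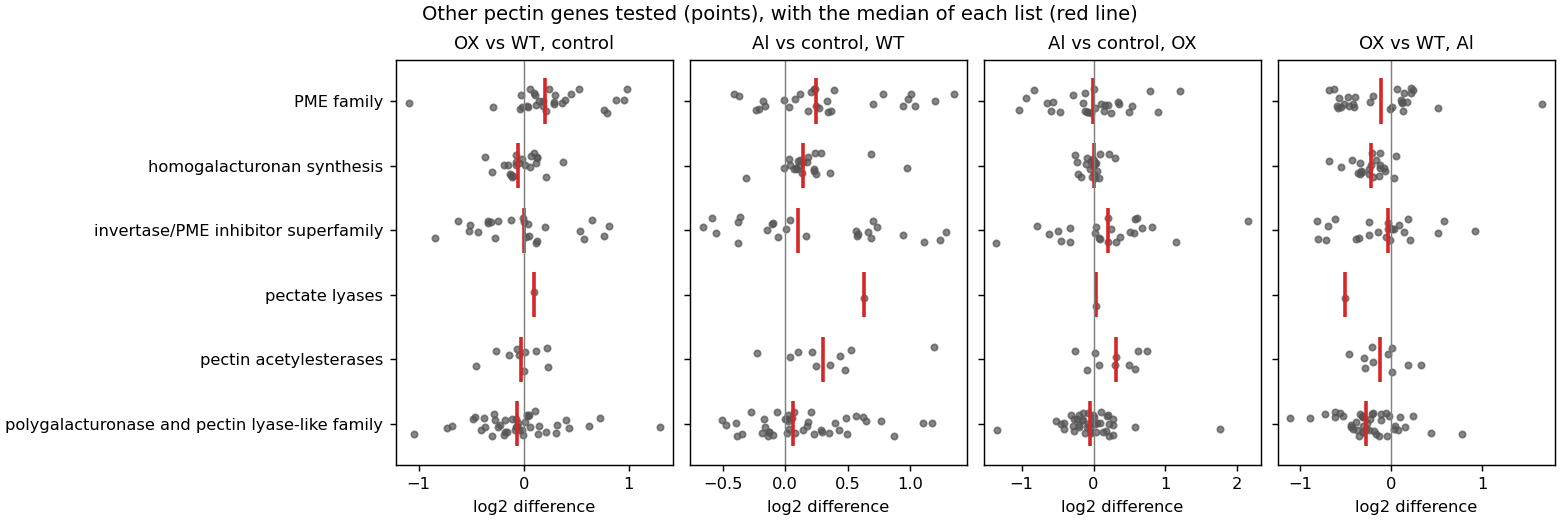
Log2 differences (horizontal axis, own scale per panel) of the other tested genes in 6 pectin lists (rows) for 4 comparisons, with the median of each list as a red line. Genes of the homogalacturonan synthesis list lie mostly above 0 with Al in WT (20 of 22) and mostly below 0 for OX vs WT with Al (20 of 22), with 0 of them called.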

How the data were processed

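RNA from roots was sequenced in 12 libraries, 3 in each of 4 groups taken from the labels. The deposited values are FPKM per gene and library. According to the methods, the authors used HISAT2 for the alignment of paired reads of 150 bases to TAIR10 and HTSeq (0.6.0 in the submitters' processing notes) for the counts per gene, from which they derived FPKM, and compared groups with DEGseq. The FPKM were not rescaled here.

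DEGseq needs counts, so log2(FPKM + 0.5) was fitted with limma 3.58.1 in R 4.3.3, with a mean per group over all 12 libraries and a variance trend. The filter kept 20773 genes that reached 0.5 FPKM in 3 or more libraries. Benjamini-Hochberg adjustment ran over these genes, and the limits for a call were an adjusted p up to 0.05 and a log2 difference of 1 or more in size, as in the methods. The pseudocount understates changes of low genes. A median over a list is given beside that over all genes tested.

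Fragments were read back from the steps of the FPKM values, up to a common factor per gene. Symbols, positions and sequences are from RefSeq TAIR10.1, where 25579 of 25872 identifiers were found. Coding sequences were aligned globally with Biopython 1.88 (match 1, mismatch -1, gap opening -3, extension -0.5). Figures were drawn with matplotlib 3.10.9, and tables were handled with pandas 2.3.3 and numpy 2.4.6 in Python 3.11.15.

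The members, lists and tests were chosen with earlier results of these data known. The text names all members, their neighbouring pectin genes (*RHS12*, AT3G14300, AT5G04970 and AT2G43860), up to 2 genes per list and tested comparison that changed most in each direction (called, with groups that do not overlap), and the gene most correlated with each member. Markers and AT2G43900 were named besides. From the hand-written list of pectin methylesterases, 2 genes that the annotation describes otherwise, *RHS12* among them, were left out. Alternatives were other pseudocounts, no filter, scaling by quantiles or by median ratios, fitting the compared groups alone, a replicate block, limma voom on fragments and leaving out each library. Leaving out replicate 1 of both control groups was added after the data had been seen.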

Additional observations from a re-analysis of the deposited data

How the results depend on the processing

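With 3 libraries per group, the counts of called genes moved with the processing, while 0 of the 10 members were called in the 3 tested comparisons under every alternative except leaving out replicate 1 of both control groups. For OX vs WT in control, 9 genes were called in all, 5 with a pseudocount of 1, 5 without the filter, 0 in a fit to only the groups compared, 2 by voom and 2 without replicate 1 of both control groups. Over libraries left out in turn the count was 1 to 10. For Al vs control in WT it was 69 in all, 38 without the filter, 141 without replicate 1 of both control groups, where 2 members were called, and 0 to 152 with libraries left out in turn. For Al vs control in OX it was 179 in all, 39 in a fit to only the groups compared, 91 without replicate 1 of both control groups, and 3 to 490 with libraries left out in turn. For OX vs WT with Al it was 8 in all, 5 by voom, and 1 to 10 with libraries left out in turn. For the change of the genotype difference it was 0 in all, 1 without the filter, and 0 to 0 with libraries left out in turn. The causes were not tested, and a fit to only 2 groups has fewer libraries by construction.

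Replicate numbers recur between groups. Same-numbered libraries had residual correlations of -0.247 to 0.286, and differently numbered ones of -0.274 to 0.263. These ranges over the whole table overlap, so they cannot decide whether the numbers pair the libraries. With the replicate number as a block, 2 genes were called for OX vs WT in control, 85 for Al vs control in WT, 213 in OX, 4 for OX vs WT with Al and 0 for the change of the genotype difference.

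Values near 0 changed sign. Without replicate 1 of both control groups, AT2G43890 became 0.08 for OX vs WT in control and 0.15 for Al vs control in OX, *PME46* -0.04 for Al vs control in WT, and *PME59* and AT5G04970 became 0.03 and 0.12 for Al vs control in OX. AT2G43880 became -0.02 with a pseudocount of 1 and -0.06 with quantile scaling for Al vs control in OX. AT3G14300 became 0.29 by voom for Al vs control in WT. *PME1* became 0.01 for OX vs WT with Al under median-ratio scaling. With single libraries left out, the ranges that crossed 0 were, for OX vs WT in control, -0.16 to 1.0 for *PME60*, -0.16 to 0.09 for *PME3*, -0.03 to 0.94 for AT3G59850, -0.65 to 0.48 for AT2G43880, -0.5 to 0.24 for AT2G43890 and -0.27 to 0.99 for AT3G14300. For Al vs control in WT they were -0.06 to 0.66 for *PME46* and -1.03 to 0.23 for AT3G14300. In OX they were -0.63 to 0.03 for *PME59*, -0.05 to 0.38 for *PME3*, -0.28 to 0.53 for AT2G43880, -0.16 to 0.15 for AT2G43890 and -0.37 to 0.12 for AT5G04970. For OX vs WT with Al, *PME1* ranged from -0.1 to 0.11 and *PME3* from -0.43 to 0.08.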
